A study of Homo sapiens with 4 samples.

Results

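The genes described here are the RAB GTPases, the vesicle coats and the tethering and fusion machinery of membrane traffic, in the m6A-seq of irradiated human cells. They were chosen by gene symbol alone: RAB, ARF, ARFGAP, ARFGEF, SEC, COP, CLT, AP adaptor, VPS, SNX, STX, VAMP, TRAPPC, COG and EXOC symbols followed by a number or letter. The rule took 245 of the 14911 genes with a count. It reaches past RAB proteins and coats: 25 of the genes carry SNARE symbols (SEC22A and SEC22C among them, whose proteins lack the SNARE motif), 8 encode subunits of the protein translocon or signal peptidase of the endoplasmic reticulum, and a few share only the symbol, such as VPS72, a histone chaperone subunit of chromatin remodelling complexes, and SEC14L1, a lipid-binding protein. The 245 genes were sorted into 20 families or complexes.

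The cells were HEK293T, an established human embryonic kidney line, and every library came from cells exposed to X-rays. Cells carrying a control short hairpin RNA (shCTL) were set beside cells carrying a hairpin against ALKBH5 (shA5), the demethylase that removes m6A from RNA. From each population, the polyadenylated RNA was sequenced before (input) and after immunoprecipitation with an m6A antibody (IP), giving 4 libraries. There was 1 library in each group, so no p-value was computed, and the sources used here do not say which of the study's hairpins these cells carried, nor which of its harvest times after irradiation, from hours to a day, applies to these libraries.

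Membrane traffic moves proteins between organelles in vesicles. Small GTPases of the ARF and RAB families recruit coats, adaptors and effectors to a membrane. Coats (COPII leaving the endoplasmic reticulum, COPI between Golgi and endoplasmic reticulum, clathrin with its adaptors at the Golgi, endosomes and plasma membrane) shape the vesicle, tethering complexes catch it at its target, and SNAREs fuse it. In m6A, a methyl group sits on the N6 position of an adenosine inside the RNA chain. It is placed mostly at adenosines in DRACH contexts such as GGACT, above all in long internal exons and near stop codons.

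Depth differed between libraries. They held 2237819 (shCTL input), 3944402 (shCTL IP), 1311390 (shA5 input) and 3148119 (shA5 IP) counts, of which the trafficking genes took 1.04 to 1.14%. The RNA of ALKBH5 itself stood at 217 CPM (counts scaled to the library total) before IP in shCTL and at 111 CPM in shA5, a log2 ratio of -0.97 with a 95% interval from -1.25 to -0.70. Of 6 markers fixed for this line, LHX1 (35 to 277 counts per library) and NEFL (83 to 555) were well counted, NEFM, INA and VIM had 2 to 24 counts, and PAX2 had 0 or 1. Among 6 markers of other cell types PTPRC, CD3E, ALB and KRT5 had 0 counts in every library, PECAM1 had 0 to 2, and COL1A1 had 150 to 578. All intervals given are exact 95% intervals of the raw counts without a pseudocount. They cover counting error only and leave out variation between samples, since each group has 1 library. Reads were not counted as unique molecules, so copies of 1 molecule may have been counted repeatedly. The intervals may therefore be too narrow even for counting error.

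Most genes, trafficking genes and others alike, were too thinly counted for a ratio. Of the 245, 90 reached an average of 50 counts per library, a share similar to that of all genes (5320 of 14911). Ratios are described for these 90. Of the other 155 genes, 20 had at most 3 counts in every library, which was not counted over all genes. Several genes that nearly every human cell uses were among the low ones. CLTC, the clathrin heavy chain, had 3, 17, 4 and 8 counts (shCTL input, shCTL IP, shA5 input and shA5 IP, the order used throughout). COPA, the alpha subunit of the COPI coat, had 22, 12, 6 and 15 counts. ARF1, the GTPase that recruits COPI, had 30, 53, 33 and 49 counts. The same held for RAB1A, RAB2A, RAB6A and RAB11A, which reached 29 counts at most in any library. The share of the genes that passed was 55.6% (15 of 27) where Gencode v44 lists 1 coding transcript, 39.2% (47 of 120) with 2 to 4 and 29.8% (28 of 94) with 5 or more. The part of transcript number in these low counts was not tested, and the counts of such genes are not read here as low expression.

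**Figure D1:**
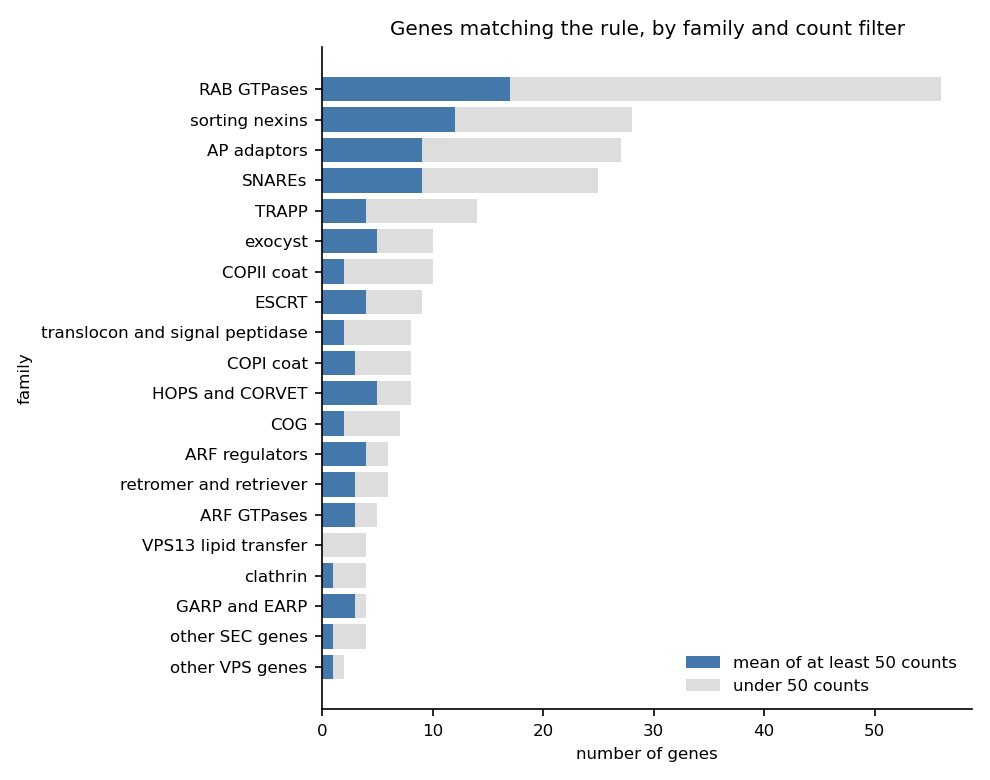
Number of trafficking genes in each family (horizontal axis, genes), split into those that reached an average of 50 counts per library (blue) and those under it (grey). Of 56 RAB genes 17 passed, the 4 VPS13 genes all stayed under the filter, and the HOPS and CORVET (5 of 8) and GARP and EARP (3 of 4) complexes kept most of their subunits.

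Input levels were compared between genes only per length, as CPM per kb of transcript. ARF5, a Golgi ARF, had the highest input level, at 235 CPM per kb in shCTL and 196 in shA5. COPG1, the gamma subunit of COPI, followed with 212 and 186 CPM per kb. VPS25 of the ESCRT machinery, which sorts receptors into multivesicular endosomes, had 175 and 171 CPM per kb, VPS51 of the GARP and EARP tethers had 163 and 145, and RAB1B, the GTPase of traffic from endoplasmic reticulum to Golgi, had 149 and 130. These 5 held the same order in both inputs. In shCTL the lowest of the 90 genes were ARFGEF3 (3.10 CPM per kb, and 4.88 in shA5) and RAB3B (3.67 and 4.18 CPM per kb), which works on secretory vesicles. VPS51 has 19 named pseudogenes, and how reads shared with such copies were counted is not given in the sources used here.

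The first question was how the mRNAs of the trafficking machinery were recovered by the m6A antibody. Enrichment is log2 of IP over input CPM, with 0.5 CPM added to each. A few transcripts were strongly enriched, among them ARF6, EXOC8, VPS18, AP3D1, AP5B1 and, in shA5, VPS39, while most of the machinery lay at or under its input. In shCTL 11 of the 90 genes (12.2%) were enriched at least 1.5-fold, where the background over all 5320 genes was 22.5%. In shA5 13 genes (14.4%) were, against a background of 24.3%. The IP lay at least 1.5-fold under the input for 33 genes in shCTL (36.7%, background 30.3%) and for 37 in shA5 (41.1%, background 31.7%).

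The median enrichment of the 90 genes was -0.32 in shCTL, with quartiles of -0.80 and 0.14. Over all 5320 genes it was -0.11. In shA5 the median was -0.33, with quartiles of -1.03 and 0.29, against -0.10 over all genes. The spread among the 90 genes (SD 0.82 in shCTL and 0.90 in shA5) was far wider than the distance between these medians, and no test sets the list apart from other genes. The medians moved with the filter: over the 83 genes averaging at least 50 counts in the inputs alone they were -0.49 in shCTL and -0.62 in shA5, against -0.26 and -0.24 over all 4756 such genes. Of the 90 genes 12 (13.3%, against 12.9% of all genes) averaged under 50 input counts and were measured only through their IPs, which favours enrichment. The enriched genes among them were TRAPPC1, TRAPPC3 and RAB39A. In shCTL the counting interval of enrichment lay above 0 for 18 genes (20%, against 33.7% of all 5320), below 0 for 49 (54.4%, against 42.3%), and held 0 for 23. In shA5 it lay above 0 for 19 genes (21.1%, against 32.6%), below 0 for 46 (51.1%, against 39.1%), and held 0 for 25.

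The most enriched transcripts came from different steps of traffic. ARF6, the GTPase of the plasma membrane and recycling endosomes, had 624, 3521, 369 and 2939 counts. Its enrichment was 1.68 (interval 1.56 to 1.80) in shCTL and 1.73 (1.57 to 1.89) in shA5, the highest of the 90 genes in both populations. EXOC8, a subunit of the exocyst that tethers secretory vesicles to the plasma membrane, had 410, 2128, 324 and 2167 counts and enrichments of 1.56 and 1.48. An exon of SPRTN lies over EXOC8 on the opposite strand, and the strand setting of the counting is not given in the sources used here.

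VPS18, a core subunit of the HOPS and CORVET tethers of endosomes and lysosomes, had 346, 1679, 237 and 1520 counts and enrichments of 1.46 and 1.42. AP3D1, the delta subunit of the AP3 adaptor that sorts cargo to lysosomes and related organelles, had 201, 964, 118 and 692 counts and enrichments of 1.44 and 1.28. AP5B1, the beta subunit of the late endosomal AP5 adaptor, had 635, 2440, 359 and 2111 counts and enrichments of 1.12 and 1.29. The intervals of ARF6, EXOC8, VPS18 and AP3D1 in shCTL ran from 1.22 for AP3D1 at the lowest to 1.80 for ARF6 at the highest, and all of them overlapped, so these genes are not ordered beyond counting error. The AP5B1 interval in shCTL, which ended at 1.25, lay under those of ARF6, EXOC8 and VPS18.

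At the opposite end were COPZ1, EXOC6B, STX17, ARF3, AP1G1 and COG3, whose IP lay far under the input in both populations. COPZ1, the zeta subunit of COPI, had 204, 72, 75 and 54 counts and enrichments of -2.29 and -1.71. EXOC6B, another exocyst subunit, had 102, 53, 79 and 37 counts and enrichments of -1.73 and -2.31. STX17, the SNARE that fuses autophagosomes with lysosomes, had 94, 46, 51 and 28 counts and enrichments of -1.81 and -2.07. ARF3 works at the Golgi, AP1G1 is the gamma subunit of the AP1 adaptor between Golgi and endosomes, and COG3 belongs to the COG tether of the Golgi. ARF3 was the best counted of these, with 432, 229, 268 and 172 counts and enrichments of -1.72 and -1.89. For each of these 6 genes both intervals lay wholly below -1.

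The motif GGACT was common in these transcripts, enriched or not. Of the 90 transcripts that carried most of each gene's counts, 85 (94.4%) held GGACT at least once on the transcript strand, against 93.3% of all 5292 transcripts that could be matched. In the 200 bases around the stop codon GGACT occurred in 20 of 89 genes (22.5%) and in 1220 of 5090 genes overall. The windows below show the GGACT nearest to the stop codon, in capitals, in 4 strongly enriched transcripts (ARF6, EXOC8, VPS18 and AP5B1) and in 3 far below their input (ARF3, EXOC6B and STX17). Each is 25 bases of the transcript strand, 5′ to 3′, in hg38. ARF6 and ARF3 are set side by side because they are paralogues and both have the letters in the coding sequence of the last exon, with the adenosine 43 and 32 bases before the stop codon.
ARF6 (chr14:49894207-49894231, plus strand, coding part of exon 2 of 2): ctcaggggacGGACTctatgagggg
EXOC8 (chr1:231336126-231336150, minus strand, coding part of its only exon): gggtgatatcGGACTggatctcacc
VPS18 (chr15:40900836-40900860, plus strand, coding exon 4 of 5): gtggccggccGGACTcactactggc
AP5B1 (chr11:65777875-65777899, minus strand, coding part of exon 2 of 2): ccctggcgggGGACTacctccgtgg
ARF3 (chr12:48938969-48938993, minus strand, coding part of exon 5 of 5): acgaaggcctGGACTggctggccaa
EXOC6B (chr2:72179347-72179371, minus strand, coding part of exon 22 of 22): gcagctccgaGGACTcatcagcagc
STX17 (chr9:99968962-99968986, plus strand, 3′ UTR in exon 8 of 8): actctgataaGGACTtgagatgtgt
ARF6 has the letters 2 times in its transcript and ARF3 has them 6 times. EXOC8 has them 3 times, EXOC6B 9 times, VPS18 5 times, AP5B1 12 times and STX17 3 times. Over the 90 genes Spearman's rho between GGACT per kb of transcript and enrichment was 0.15 in shCTL and 0.14 in shA5, and over all matched genes 0.17 in each, given without a test. A match marks letters in a reference transcript. The files hold counts per transcript and no position of m6A, so no methylated site is assigned here.

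Subunits of the same complex differed widely in enrichment. Within the exocyst EXOC8 stood at 1.56 in shCTL and 1.48 in shA5, while EXOC2 (-1.17 and -1.14), EXOC4 (-1.14 and -1.51) and EXOC6B lay under their input in both, and EXOC7 (-0.45 and -0.18) lay between. In HOPS and CORVET VPS18 and VPS39 (0.91 and 1.32) were enriched, whereas VPS16 (-0.72 and -1.01) and VPS33A (-0.71 and -1.56) were under input. In none of the families with at least 5 measured genes did every gene lie on the same side of 0.

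**Figure D2:**
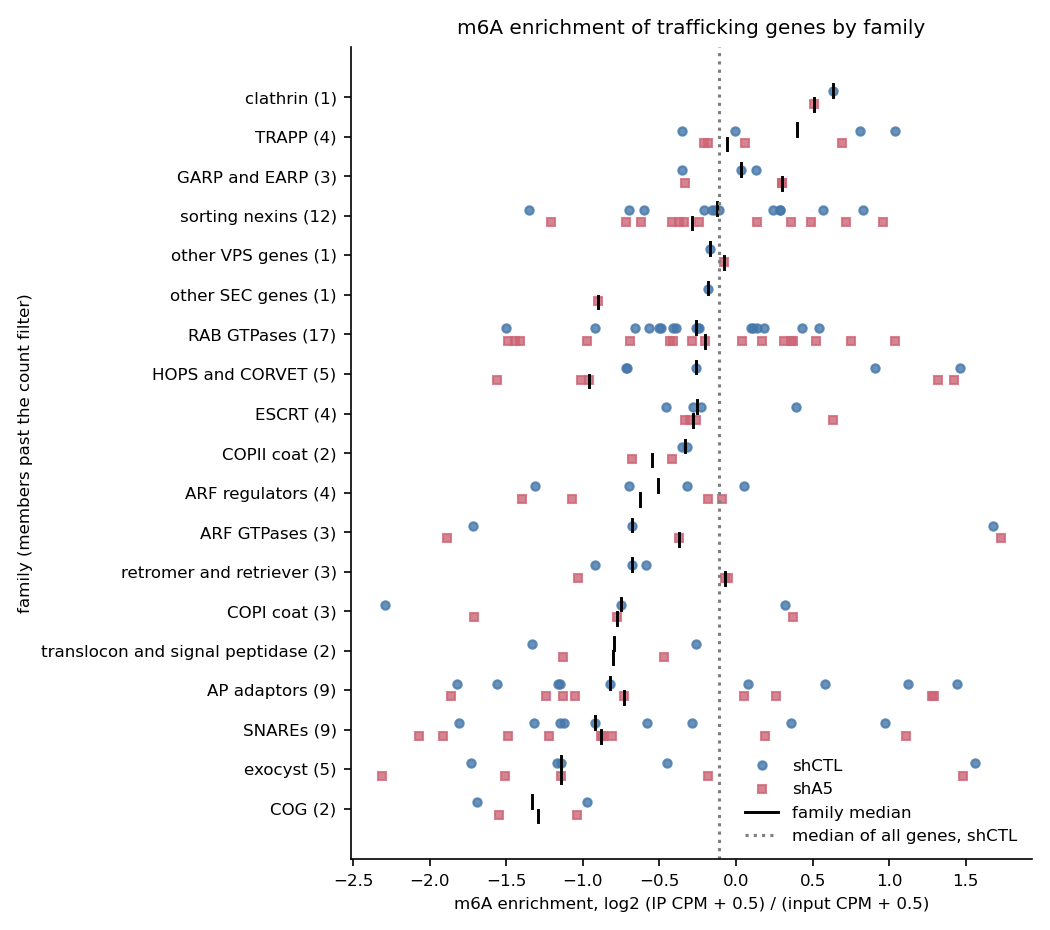
m6A enrichment (horizontal axis, log2 of IP over input, as CPM with 0.5 added) of the 90 trafficking genes, in families ordered by their shCTL median. Circles are shCTL, squares are shA5, black ticks are family medians, and the dotted line is the shCTL median of all genes, -0.11. The exocyst spans -1.73 to 1.56 and the ARF GTPases -1.72 to 1.68 in shCTL, nearly as wide as the whole set.

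Adaptor subunits differed too. In AP3 and AP5 the large subunits AP3D1 and AP5B1 were enriched, while the small sigma subunits were under input, with AP3S1 at -1.15 and -1.05, AP3S2 at -1.16 and -1.13, and AP5S1 at -1.82 and -1.24. AP5Z1, a further large subunit of AP5, was near its input at 0.08 and 0.05. In AP1 the large subunit AP1G1 (-1.56 and -1.86) lay lower than the small AP1S1 (-0.82 and -0.73). Of the 9 adaptor genes 2 (22.2%) were enriched, close to the backgrounds of 22.5% and 24.3%, and 5 (55.6%) were under input, against 30.3% and 31.7%, in shCTL and in shA5 alike. AP2S1, the small subunit of the plasma membrane adaptor, had 0.58 and 0.26.

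Of the 17 measured RAB transcripts 0 were enriched 1.5-fold in shCTL, against 22.5% of all genes, and 2 (11.8%) in shA5, against 24.3%. Their median was -0.26 in shCTL and -0.20 in shA5, and 3 (17.6%) and 5 (29.4%) of them were at least 1.5-fold under input, which is no more than the backgrounds of 30.3% and 31.7%. RAB7A, the GTPase of late endosomes and lysosomes, was the lowest at -1.50 and -1.49, with 175, 108, 105 and 89 counts. RAB22A and RAB31, both GTPases of the endocytic pathway, stood at -0.92 and -1.41 and at -0.66 and -0.69. At the upper end RAB26, a GTPase of secretory granules, was at 0.54 and 1.04. The genes past 1.5-fold in shA5 were RAB26 and RAB39A (0.18 and 0.75), and both had few input counts there, 24 and 20. RAB5C, of early endosomes, was at 0.43 and 0.17, and RAB10, of recycling and secretory traffic, at -0.24 and -0.43.

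Of the 9 measured genes grouped as SNAREs by symbol, SEC22C included, 1 (11.1%) was enriched 1.5-fold in shCTL and in shA5, against 22.5% and 24.3% of all genes. Under input by 1.5-fold were 5 (55.6%) and 7 (77.8%), against 30.3% and 31.7%. The enriched gene, STX18, which receives vesicles returning to the endoplasmic reticulum, had 118, 408, 55 and 287 counts and enrichments of 0.97 and 1.11. Its matched transcript held no GGACT, and an exon of NSG1 lies over it on the opposite strand. The SNARE median was -0.92 in shCTL and -0.88 in shA5. The VAMP genes, whose proteins sit on the vesicle, lay lowest beside STX17 in shCTL, with VAMP1 at -1.15 and -1.91, VAMP2 at -1.12 and -0.81 and VAMP3 at -1.32 and -0.88. STX4, the syntaxin of the plasma membrane, was above its input at 0.36 and 0.19, the second value with an interval that held 0. VAMP2 was the only gene with 2 listed transcripts that each passed the filter. They had -1.48 and -0.92 in shCTL and -1.11 and -0.54 in shA5, with overlapping intervals.

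Of the 6 measured coat genes 2 (33.3%) were at least 1.5-fold under input in shCTL and 3 in shA5, against 30.3% and 31.7% of all genes. In COPI COPZ1 and COPG1 were under it (-0.75 and -0.78 for COPG1, with 1462, 1532, 752 and 1054 counts), and COPB1, the beta subunit, stood at 0.32 and 0.37 with intervals that held 0. Both measured COPII genes, SEC31A (-0.35 and -0.68) and SEC31B (-0.32 and -0.42), encode the outer cage and had intervals below 0. CLTB, a clathrin light chain, was at 0.63 and 0.51. Of the ARF exchange factors ARFGEF2 had -1.31 and -1.40 and ARFGEF1 -0.70 and -1.07, while ARFGAP2, which turns ARF off on COPI vesicles, was at 0.05 and -0.09.

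The tethers and endosomal sorting complexes were mixed. Both measured COG genes were at least 1.5-fold under input in shCTL and shA5, where 30.3% and 31.7% of all genes were, with COG3 at -1.69 and -1.55 and COG7 at -0.97 and -1.04. All 3 measured retromer and retriever genes, which retrieve cargo from endosomes, were that far under input in shCTL and 1 of them (33.3%) in shA5, against the same backgrounds, with VPS35 at -0.92 and -1.03, VPS26B at -0.68 and -0.05, and VPS26C at -0.59 and -0.07. The GARP and EARP subunits were near input, from -0.35 for VPS51 to 0.13 for VPS54 in shCTL. In ESCRT VPS37B was above input (0.39 and 0.63) and VPS4A, the ATPase that takes ESCRT apart, was a little under it (-0.23 and -0.33). In TRAPP, a tether and RAB exchange factor, 2 of 4 genes were enriched in shCTL and 1 in shA5 (25%), against 22.5% and 24.3%. TRAPPC3 had 1.04 and -0.21 on 27, 100, 29 and 60 counts, and TRAPPC1 had 0.81 and 0.69 on 40, 125, 22 and 86 counts, so both passed the filter through their IPs. TRAPPC5, which also passed through its IPs, had -0.01 and 0.06, and TRAPPC10, the best counted, had -0.35 and -0.18.

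Sorting nexins, which bind endosomal lipids and bend or sort membranes, spread around their input. Their median over 12 genes was -0.12 in shCTL and -0.29 in shA5. SNX33, which acts in endocytosis, was the highest at 0.83 and 0.96, with 279, 876, 162 and 760 counts, and an exon of IMP3 lies over it on the opposite strand. SNX8 had 0.57 and 0.36. SNX4, of endosomal recycling, was the lowest at -1.35 and -1.21, and SNX30, its close relative, had -0.70 and -0.72.

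Paralogues were compared in 20 pairs, which were listed after the values had been seen. In 5 pairs the intervals did not overlap in shCTL nor in shA5. The ARF GTPases gave 3 of them, with ARF3, ARF5 (-0.68 and -0.37) and ARF6 all apart. ARF3 lay under ARF6 by a log2 difference of -3.40 in shCTL and -3.62 in shA5. The other pairs were VPS37B above VPS37C, by 0.85 and 0.90, and SNX9 under SNX33, by -1.04 and -1.58. Exons of FSCN3 on the same strand and of GCC1 on the opposite strand lie over ARF5.

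The length of coding exons went with enrichment. Of the 90 genes 12 have a coding exon of at least 500 bases in their main transcript. They include AP5B1 (longest coding exon 2484 bases), EXOC8 (2175), VPS18 (1871), SNX33 (1471) and ARF6 (525), which are the 5 of them that were enriched 1.5-fold in both populations. The median enrichment of the 12 genes was 0.14 in shCTL and 0.40 in shA5, and 41.7% were enriched in each. Among the 12, RAB9A, SNX18 and TRAPPC5 averaged under 50 input counts and passed the filter through their IPs. Among the 78 genes with shorter coding exons the medians were -0.40 and -0.43, and 7.69% and 10.3% were enriched. Over all genes the shares were 44.8% and 47.9% with such an exon and 10.8% and 12.1% without. The medians over all genes were 0.48 and 0.55 with such an exon, above those of the 12 genes, and -0.39 and -0.40 without. The length of 500 bases was chosen after these values had been seen.

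A long coding exon did not fix the value of a gene. SNX18 (1621 bases, 0.29 and 0.49) and ARFGEF3 (1219 bases, -0.32 and -0.18) had intervals that held 0 in both populations. VPS51 (718 bases, -0.35 and -0.33) had intervals below 0 in both, and VPS37C (717 bases, -0.46 and -0.26) in shCTL, while its shA5 interval ended at 0.03. In the other direction AP3D1 was enriched with a longest coding exon of 232 bases, and VPS39 with 184. Spearman's rho between the longest coding exon and enrichment was 0.25 in shCTL and 0.27 in shA5 over the 90 genes, and 0.47 and 0.49 over 5281 genes. These describe genes that share the same libraries and are given without a test. The median longest coding exon was 200 bases for the trafficking genes and 313 bases over all genes. The median coding sequence was 1017 against 1398 bases, and the median 3′ UTR 1996 against 1440 bases.

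**Figure D3:**
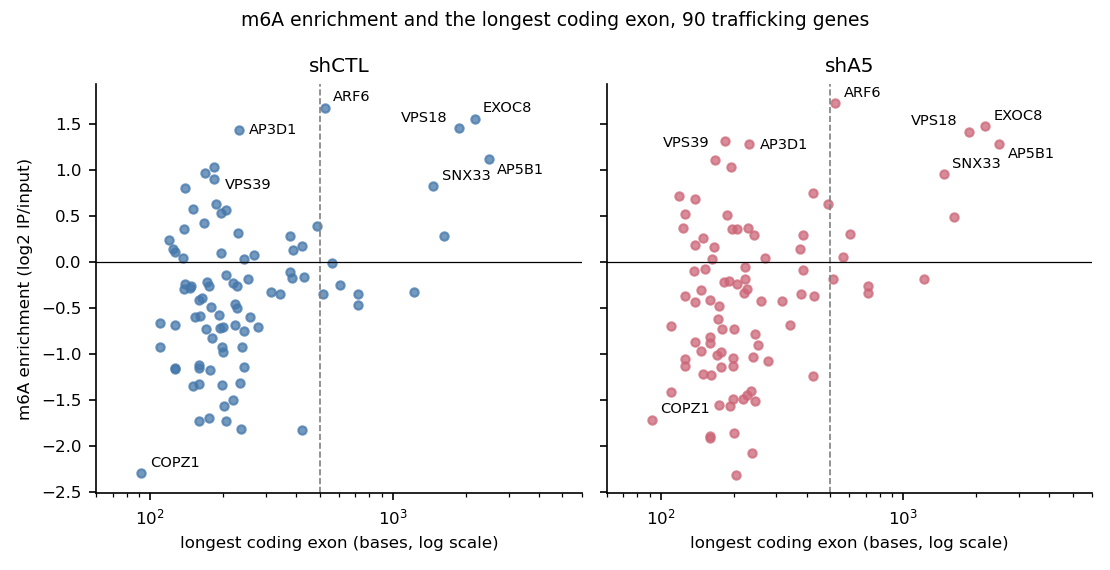
m6A enrichment (vertical axis, log2 of IP over input) of the 90 trafficking genes against the longest coding exon of the main transcript (horizontal axis, bases, log scale), for shCTL and shA5; the dashed line marks 500 bases. Of the genes right of the line AP5B1, EXOC8, VPS18, SNX33 and ARF6 lie highest in both panels, AP3D1 and VPS39 are high with exons of 232 and 184 bases, and COPZ1 is lowest in shCTL.

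The next question was whether enrichment differed in the cells with the ALKBH5 hairpin. The order of the genes was largely kept, and few genes moved. Spearman's rho between shCTL and shA5 enrichment was 0.90 over the 90 genes and 0.93 over all 5320. The median change (shA5 minus shCTL) was -0.02 for the trafficking genes, with quartiles of -0.21 and 0.19, and 0.00 over all genes. Of the 90 genes 1 was at least 1.5-fold higher in shA5 (1.11%, background 5.38%) and 7 were at least 1.5-fold lower (7.78%, background 5.09%). The count of higher genes depended on the scaling: it was 4 with TMM factors (4.44%, background 5.77%) and 3 with DESeq2 size factors (3.33%, background 5.66%) or a pseudocount of 0.1 CPM (3.33%, background 5.58%). For 76 of the 90 the counting interval of the change held 0, for 4 it lay above 0 (4.44%, against 8.18% of all genes) and for 10 below (11.1%, against 8.06%).

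**Figure D4:**
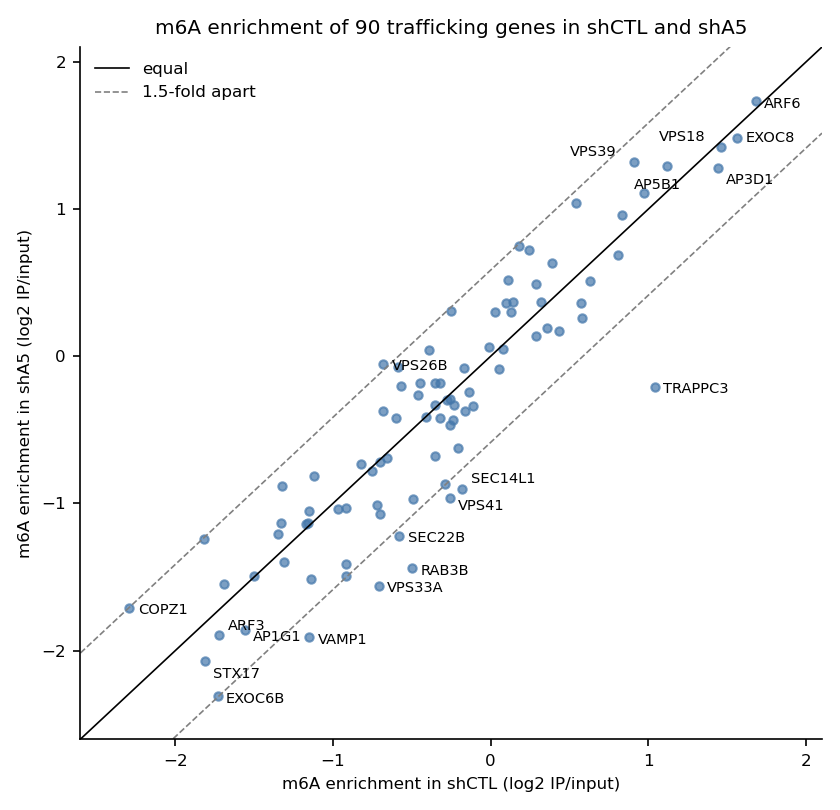
m6A enrichment (log2 of IP over input) in shCTL (horizontal axis) and shA5 (vertical axis), with 1 point per trafficking gene; the solid line marks equal values and the dashed lines a 1.5-fold difference. VPS26B lies past the upper dashed line and TRAPPC3, RAB3B, VPS33A, VAMP1, SEC14L1, VPS41 and SEC22B past the lower one.

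VPS26B, a subunit of retromer at chr11:134224671-134247788, was the gene with higher enrichment. It had 245, 269, 108 and 251 counts, which are 109, 68.2, 82.4 and 79.7 CPM. Its enrichment was -0.68 in shCTL and -0.05 in shA5, a change of 0.63 (interval 0.21 to 1.06), with an input change of -0.41 in the same cells. In shA5 its IP level was a little higher and its input level lower than in shCTL. An exon of NCAPD3 lies over VPS26B on the opposite strand. AP5S1, RAB39A and COPZ1 had changes of 0.58 each, at the edge of the threshold and with intervals that held 0.

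SEC22B, the SNARE between endoplasmic reticulum and Golgi at chr1:120150898-120176520, was the best counted of the 7 genes past the threshold on the lower side. It had 273, 321, 177 and 181 counts, which are 122, 81.4, 135 and 57.5 CPM, and its enrichment went from -0.58 to -1.22, a change of -0.64 (interval -1.04 to -0.26). In SEC22B the IP level was lower in shA5 and the input level was similar. STX12, a SNARE of endosomes, had nearly the same difference, -0.58 (interval -1.01 to -0.16), on 213, 306, 134 and 175 counts. SNX9, which acts with clathrin in endocytosis, had a change of -0.41 (interval -0.71 to -0.11) on 413, 628, 252 and 393 counts.

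The other 6 genes past the threshold had a mean of under 200 counts. TRAPPC3, a core subunit of TRAPP, differed most, with 27, 100, 29 and 60 counts and a change of -1.25 (interval -2.24 to -0.33). RAB3B had 105, 130, 70 and 61 counts and a change of -0.94 (-1.60 to -0.30). VPS33A, the HOPS and CORVET subunit that guides SNARE assembly, had 73, 78, 90 and 72 counts and a change of -0.86 (-1.54 to -0.19). In VPS33A and TRAPPC3 the input CPM was higher in shA5, from 32.6 to 68.6 and from 12.1 to 22.1, so the change of enrichment and that of the input rest on the same input counts. For RAB3B the input was 46.9 and 53.4 CPM and only the IP level was lower in shA5.

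VAMP1, a vesicle SNARE, had a change of -0.77 (interval -1.45 to -0.11) on 112, 88, 85 and 53 counts, with an exon of TAPBPL on the opposite strand. SEC14L1 had -0.72 (-1.44 to -0.02) on 54, 84, 68 and 87 counts, with an exon of SNHG20 on the same strand. Its input was 24.1 CPM in shCTL and 51.9 in shA5 and its IP 21.3 and 27.6 CPM, so this change too rests on the higher input counts. VPS41, another HOPS subunit, had -0.70 with an interval that held 0 (-1.52 to 0.09). SEC22C, the relative of SEC22B, had -0.57 (-1.09 to -0.06), short of the threshold.

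Higher enrichment that stayed under the threshold was seen in several well counted genes. RAB35, a GTPase of endocytic recycling, had 367, 700, 201 and 691 counts and a change of 0.40 (interval 0.11 to 0.70). RAB1B had 626, 742, 323 and 675 counts and a change of 0.37 (0.12 to 0.62). ARF5 had 0.31 (0.03 to 0.59). These 3 and VPS26B are the genes whose intervals lay above 0. VPS39 (0.41, interval -0.03 to 0.86) and VPS53, of GARP and EARP (0.27, -0.05 to 0.60), had intervals that held 0, as did ARFGEF1 (-0.36), SNX8 (-0.21) and SEC63 (-0.21) among the lower ones. SEC63 works with the translocon.

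The intervals of the change held 0 for 5 of the most enriched transcripts. The change was 0.05 (interval -0.15 to 0.25) for ARF6, -0.08 (-0.31 to 0.15) for EXOC8, -0.04 (-0.31 to 0.22) for VPS18, -0.16 (-0.52 to 0.21) for AP3D1 and 0.17 (-0.04 to 0.38) for AP5B1. For these 5 genes the intervals do not reach a 1.5-fold change in either direction. The interval of VPS39, whose enrichment in shA5 was similar to those of AP3D1 and AP5B1, held 0 but reached past 1.5-fold, to 0.86.

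**Figure D5:**
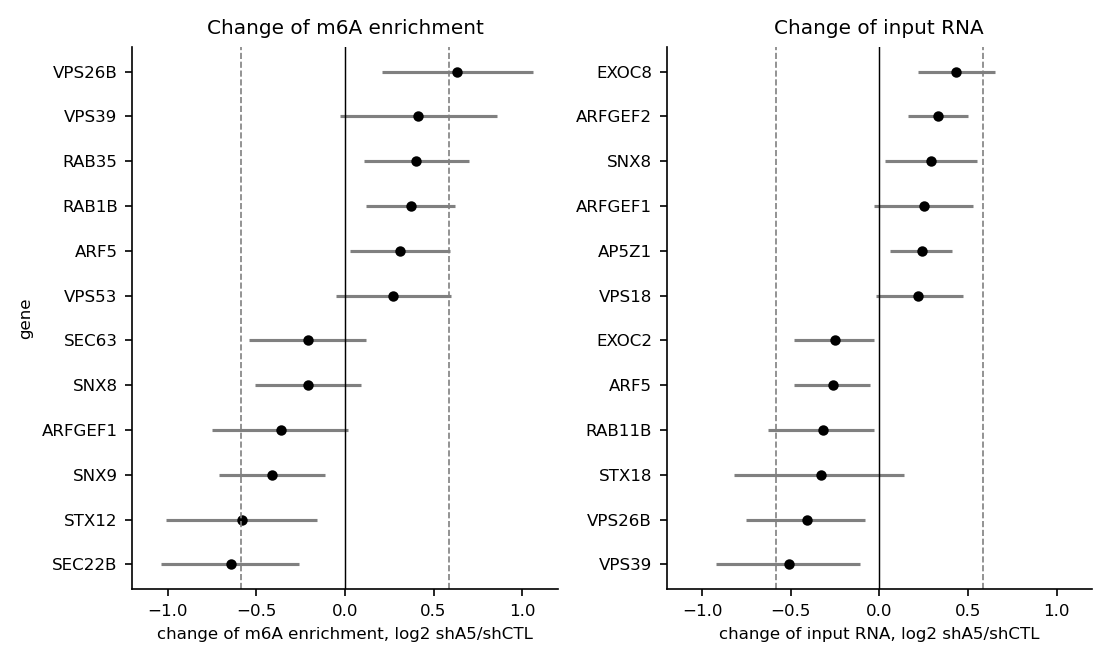
Change of m6A enrichment (left) and of input RNA (right), as the log2 difference of shA5 from shCTL, for the trafficking genes averaging at least 200 counts that differed most in each direction. Points are the values, grey lines exact counting intervals, and dashed lines a 1.5-fold change, which VPS26B (0.63) and SEC22B (-0.64) pass on the left and none passes on the right.

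The last question was whether the amount of these mRNAs differed. The input RNA of the trafficking genes was nearly level between shCTL and shA5. The median log2 ratio of input CPM was 0.01, with quartiles of -0.16 and 0.22, against -0.02 over all genes. At least 1.5-fold higher in shA5 were 6 of the 90 genes (6.67%, background 3.44%), and at least 1.5-fold lower were 2 (2.22%, background 6.43%). Of the 6 higher genes, AP2S1 and TRAPPC3 averaged under 50 input counts and passed the filter only through their IPs. With the filter on the inputs alone, 4 of 83 genes were higher (4.82%, against 2.71% of all genes) and 2 lower (2.41%, against 5.11%). Over the 90 genes the interval held 0 for 70, lay above it for 11 (12.2%, against 12.9% of all genes) and below it for 9 (10%, against 15.6%). In a bulk library a difference of input can be less RNA per cell or fewer cells holding it, which cannot be told apart.

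All 8 genes past the threshold had a mean of under 200 counts. SEC14L1 (input CPM of 24.1 in shCTL and 51.9 in shA5, a change of 1.09, interval 0.57 to 1.65) and VPS33A (32.6 and 68.6 CPM, 1.06, 0.61 to 1.54) were the highest. SEC22C, of the early secretory pathway, had 59.9 and 109 CPM, a change of 0.86 (0.51 to 1.22), and an exon of SS18L2 lies over it on the opposite strand. TRAPPC3 had 0.85 (0.07 to 1.69), AP2S1 0.68 (-0.01 to 1.39) and ARFGEF3 0.65 (0.24 to 1.07). On the lower side RAB26 had 40.2 and 18.3 CPM, a change of -1.11 (-1.85 to -0.47), and COPZ1 91.2 and 57.2 CPM, a change of -0.67 (-1.07 to -0.28).

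Among the 37 genes averaging at least 200 counts none reached 1.5-fold. EXOC8 was highest at 0.43 (interval 0.22 to 0.65), with 183 and 247 CPM in the inputs and 539 and 688 CPM in the IPs. ARFGEF2, an exchange factor for Golgi ARFs, had 0.33 (0.16 to 0.50), SNX8 0.29 (0.03 to 0.55) and AP5Z1 0.24 (0.06 to 0.41). On the lower side VPS39 had -0.51 (-0.92 to -0.11), VPS26B -0.41 (-0.75 to -0.08), RAB11B, of recycling endosomes, -0.32 (-0.63 to -0.03), ARF5 -0.26 (-0.48 to -0.05) and EXOC2 -0.25 (-0.48 to -0.03). STX18 (-0.33) and, on the higher side, VPS18 (0.22) and ARFGEF1 (0.25) had intervals that held 0.

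Trafficking genes outside the symbol rule were described in the same way. A list of 184 regulators, cargo receptors, further SNAREs, Golgi tethers and endocytic genes was drawn up, of which 179 had a count and 84 passed the filter. Their median enrichment was -0.45 in shCTL and -0.46 in shA5, and 10 (11.9%) and 11 (13.1%) of them were enriched 1.5-fold, against 22.5% and 24.3% of all genes. Under input were 35 (41.7%) and 36 (42.9%), against 30.3% and 31.7%. In shA5 the enrichment of 1 (1.19%, background 5.38%) was higher and of 6 (7.14%, background 5.09%) lower by 1.5-fold. The input RNA of 1 (1.19%, background 3.44%) was higher and of 4 (4.76%, background 6.43%) lower, where the genes of the symbol rule had 6 higher and 2 lower. Of the 84 genes 5 (5.95%, against 12.9% of all genes) averaged under 50 input counts and passed through their IPs. Both higher calls rest on such genes. RABGEF1 had the higher enrichment, with an interval that held 0 (-0.42 to 2.05). STAM2 had the higher input RNA, on 33 and 39 input counts, and also a lower enrichment (-1.37). Within the list 0 of 17 cargo receptors and coat regulators were enriched in shCTL or shA5, and 5 of 21 RAB regulators and effectors (23.8%, close to the background) in each.

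RABGGTB, the beta subunit of the enzyme that attaches the lipid anchor to RAB proteins, was the lowest of that list. It had 404, 129, 199 and 47 counts and enrichments of -2.45 and -3.30, under any of the RAB genes themselves. TMED2, a cargo receptor of COPI and COPII vesicles, stood at -2.17 and -2.36, and M6PR, the receptor for lysosomal enzymes, at -1.99 and -2.18. On the enriched side was RABGEF1, an exchange factor for RAB5 proteins, with 1.59 and 2.36 on 20, 110, 11 and 142 counts, which passed the filter only because its IP counts were high. Others were GCC1, a Golgi tether (1.44 and 1.75), and CHMP1B, an ESCRT subunit (1.29 and 1.60). GCC1 is the gene that overlaps ARF5, and the part of that overlap in either value was not tested.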

How the data were processed

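The deposited files, 1 for each of the 4 libraries, hold counts (whole numbers) and the length of each Ensembl transcript. Per the labels and the methods, reads were processed with fastp (0.23.2), aligned to hg38 with HISAT2 and sorted with SAMtools (1.9), and StringTie is named for gene quantification. Whether StringTie wrote the deposited whole-number counts, and the annotation release, strand setting and treatment of shared reads, are not given in the sources used here. Deposited counts were summed per gene symbol (28413 transcripts, 14911 genes, 0 blank names) and scaled by the library total (CPM). The shA5 input, with 1311390 counts, limits precision.

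Enrichment was log2((IP CPM + 0.5)/(input CPM + 0.5)); its change was shA5 minus shCTL; genes needed a mean of at least 50 counts, and 1.5-fold (log2 0.58) was the threshold. Exact intervals were Clopper-Pearson intervals of the conditional share for ratios and conditional odds ratio intervals for changes of enrichment. Sequence features came from Gencode v44, for the listed transcript with most counts. The members and lists were chosen with earlier results of these data known; the paralogue pairs, the split at 500 bases and the filter on inputs alone were added after values were seen. Named genes were the 6 highest and 6 lowest for each measure (changes: mean of at least 200 counts), the gene with the highest input per length in each family, examples per family, and paralogue pairs; every gene of the symbol rule past a threshold of change was named as well. The scripts were tested on simulated data. Python 3.11.15, pandas 2.3.3, scipy 1.17.1, edgeR 4.0.16 and DESeq2 1.42.0 (factors in alternatives only) were used.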

Additional observations from a re-analysis of the deposited data

How the results depend on the processing

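Of 520 recomputed values 488 stayed within the limits set for them, 32 moved and 0 were marked as reversed. That mark does not count every change of sign. The median change of input RNA was 0.01 as reported and -0.01 at a mean of 200 or more counts, which stayed within the limits. The medians of the trafficking genes and of their families did not move beyond those limits under TMM factors, DESeq2 size factors or pseudocounts of 0.1 and 2 CPM. Changing the filter shifted the median enrichment in shCTL and shA5 (-0.32 and -0.33 as reported) further, though still within those limits. It was -0.47 and -0.51 at a mean of 10 or more counts (-0.25 and -0.25 over all genes). With no filter it was -0.47 and -0.50 (-0.22 and -0.15), and at a mean of 200 or more -0.24 and -0.20 (0.12 and 0.16). With 50 or more on the inputs alone, a filter chosen after seeing the data, it was -0.49 and -0.62 (-0.26 and -0.24). The number of genes with higher enrichment in shA5 (1 as reported) was 4 with TMM factors, 3 with DESeq2 size factors and 3 with a pseudocount of 0.1 CPM; AP5S1, COPZ1 and RAB39A lie at the edge of the threshold.

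Counts of genes followed the filter, and each is given with its share and then the share of all genes at the same filter. With a mean of at least 10 counts (175 genes, and 9269 in all), 17 in shCTL (9.71% against 18.9%) and 24 in shA5 (13.7% against 21.3%) were enriched, and 76 (43.4% against 35.8%) and 85 (48.6% against 37.8%) were under input. Enrichment was higher in shA5 for 17 (9.71% against 12.6%) and lower for 24 (13.7% against 13%), and input RNA higher for 18 (10.3% against 9.32%) and lower for 15 (8.57% against 12.5%). With no filter (245 genes) 34 (13.9% against 21.6%) and 44 (18% against 24.5%) were enriched, 108 (44.1% against 36.7%) and 118 (48.2% against 37.5%) were under input, 40 (16.3% against 22.7%) had higher and 44 (18% against 21.4%) lower enrichment, and 38 each had higher (15.5% against 15.3%) and lower (against 19.9%) input RNA. At a mean of 200 or more (37 genes, and 2491 in all), 8 (21.6% against 29.1%) and 9 (24.3% against 31%) were enriched, 9 (24.3% against 21.7%) and 10 (27% against 23.7%) were under input, 1 each had higher (2.70% against 1.65%) and lower (against 1.08%) enrichment, and 0 had higher and 0 lower input RNA in shA5 (against 1.08 and 3.33%). With the filter on the inputs alone (83 genes, and 4756 in all), 9 (10.8% against 19.1%) and 11 (13.3% against 20.8%) were enriched, 38 (45.8% against 35.8%) and 42 (50.6% against 37.3%) were under input, and 3 had higher (3.61% against 4.21%) and 6 lower (7.23% against 4.71%) enrichment in shA5. Input RNA was higher for 4 of these 83 genes (4.82% against 2.71%) and lower for 2 (2.41% against 5.11%). At a 2-fold threshold 6 and 8 genes were enriched (6.67 and 8.89%, against 10.1 and 12% of all), 18 were under input in shCTL (20% against 16.9%) and 25 in shA5 (27.8% against 18.4%), 0 had higher and 1 lower enrichment (against 0.846 and 0.771%), and 2 had higher and 1 lower input RNA (against 0.470 and 1.15%). More or fewer genes pass under each of these by construction.

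No paired analysis was possible because there is 1 library in each group, and no library was left out. Counting error limits single genes: in the shA5 input 3 counts are 2.29 CPM.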
